A study of Mus musculus with 4 samples.

Results

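The immediate early genes Fos, Fosb, Jun, Junb, Jund, Egr1, Atf3, Ier2, Ier3 and Dusp1 were followed on 4 single-colour oligonucleotide arrays of mouse mitral valve. All probe sets annotated to exactly 1 of the 10 genes were taken, which gave 11 of the 22690 probe sets on the array, with 2 for Jun and 1 for each other gene. The Hom group held 1 array from valves with both fibrillin-1 (Fbn1) alleles carrying the C1039G change, the Het group 2 arrays (replicates 1 and 2) from valves with 1 mutant and 1 wild-type allele, and the WT group 1 array from Fbn1 +/+ valves. The Het titles name codon C1039 without the new residue, and C1039G is assumed for them here. No treatment, age, sex or strain was given, nor whether an array held 1 animal or a pool, nor how long the tissue was handled before RNA was extracted. Because the arrays may differ only technically, every p-value measures the spread between these arrays.

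Immediate early genes are transcribed within minutes of a stimulus without new protein synthesis, as signals through MAP kinases reach factors already bound at their promoters, such as serum response factor with its Elk partners and CREB. Several of their products are transcription factors that pair as AP-1 dimers, and others switch the signal off again. Cutting, warming and enzymatic dissociation of tissue are known to induce them, which makes them a common gauge of how a sample was handled. No array of undissected tissue was available here, so the part of dissection in any value below was not tested.

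Intensities are given on a linear scale after centring each array on the median of the kept probe sets, those with a mean deposited intensity of at least 62.6. Of the 11 probe sets, 9 were kept, covering 8 genes, and those of Fosb and Junb were not. In all 11316 probe sets were kept. Levels of different probe sets were not set against each other, since probes differ in their affinity. The array of Het replicate 2 stood apart. It was at least 2-fold above Het replicate 1 at 4.6% of kept probe sets and at least 2-fold below it at 5.19%, whereas Hom was at least 2-fold above WT at 0.672% and at least 2-fold below it at 0.61%. The ratio of its 3' to its 5' Actb probe sets, which climbs as RNA degrades, was 3.04, and on the other arrays it lay between 2.16 and 2.25. The same ratio for Gapdh set that array less apart, at 3.84 in Hom, 3.19 and 4.65 in Het replicates 1 and 2, and 4.18 in WT. Valve interstitial and fibroblast markers were kept at 16 of 16 probe sets and at the floor on none, with summed intensities of 58898 in Hom, 59596 and 40557 in Het replicates 1 and 2, and 72975 in WT.

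No immediate early gene changed by limma's test in any comparison. Atf3 and Fos had the lowest unadjusted p-values for Hom against WT and were lowest in WT of the 4 arrays, while Egr1 and Ier2, classical members of the response, were nearly level. The genes did not move as 1 block. Fos and Ier3 were highest in Het replicate 2, and Atf3, Jund, Dusp1 and Fosb in Hom. Junb, Egr1 and 1 probe set of Jun were highest in Het replicate 1, and Ier2 and the other Jun probe set in WT.

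Sequences of 250 bases before the annotated start are shown for Fosb, Atf3 and Fos, the 3 genes furthest above WT in Hom, and for Jun, the furthest below it. For Fosb the start used lies inside the gene's coordinates, which reach 19310118 on chromosome 7. Part of its window is therefore within the gene. They come from RefSeq on GRCm38.p6, 5′ to 3′ on the strand of the gene, and 8 of the 10 genes matched an entry in that table. Capitals mark matches to the letters TGACGT on either strand (the core of the cyclic AMP response element bound by CREB and ATF proteins), TGACNTCA on either strand (the full element and its AP-1-like variant, which overlaps the core), GCGNGGGCG on either strand (the form bound by EGR proteins), or TATAAA on the strand of the gene.
Fos, chr12:85473640-85473889, plus strand: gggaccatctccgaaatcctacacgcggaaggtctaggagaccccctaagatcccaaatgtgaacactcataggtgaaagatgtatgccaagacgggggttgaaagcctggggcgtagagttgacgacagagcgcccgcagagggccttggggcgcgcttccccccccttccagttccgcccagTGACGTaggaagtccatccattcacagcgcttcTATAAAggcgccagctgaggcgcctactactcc
Fosb, chr7:19310046-19310295, minus strand: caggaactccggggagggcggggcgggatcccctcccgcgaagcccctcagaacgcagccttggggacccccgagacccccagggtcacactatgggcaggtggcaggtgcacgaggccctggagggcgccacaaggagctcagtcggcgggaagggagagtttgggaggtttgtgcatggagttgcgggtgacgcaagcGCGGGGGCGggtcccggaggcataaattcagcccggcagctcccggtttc
Atf3, chr1:191183334-191183583, minus strand: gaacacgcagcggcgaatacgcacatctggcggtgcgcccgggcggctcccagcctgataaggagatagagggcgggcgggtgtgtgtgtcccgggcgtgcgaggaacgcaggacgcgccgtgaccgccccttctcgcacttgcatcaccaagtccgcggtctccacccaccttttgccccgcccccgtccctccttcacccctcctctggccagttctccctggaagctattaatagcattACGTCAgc
Jun, chr4:95052223-95052472, minus strand: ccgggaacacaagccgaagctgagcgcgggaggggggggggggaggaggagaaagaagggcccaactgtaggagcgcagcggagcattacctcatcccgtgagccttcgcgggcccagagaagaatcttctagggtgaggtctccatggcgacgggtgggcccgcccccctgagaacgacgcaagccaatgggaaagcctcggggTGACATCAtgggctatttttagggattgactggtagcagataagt

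In these windows the CRE core lay 66 bases before the start of Fos and, on the opposite strand, 8 bases before that of Atf3, and TATAAA lay 33 bases before the start of Fos. The variant TGACATCA lay 45 bases before the start of Jun. The EGR letters lay 50 bases before the start used for Fosb, which is inside the gene's coordinates. The core was found in 3 of the 8 promoters (Fos, Atf3 and Dusp1), against 6.47% of all 32851 promoter windows of the same length. TGACNTCA was found in 2 (Jun and Dusp1), against 7.49%, the EGR letters in 1, against 4.7%, and TATAAA in 1, against 7.59%. The AP-1 letters TGANTCA were found in 0 of the 8, against 6.75%, and the CArG box of serum response factor in 0 of the 8, against 1.47%, so neither set of letters stands within these windows. Of the 3 genes with the core, Fos and Atf3 were lowest in WT and Dusp1 was lowest in Het replicate 2.

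**Figure D1:**
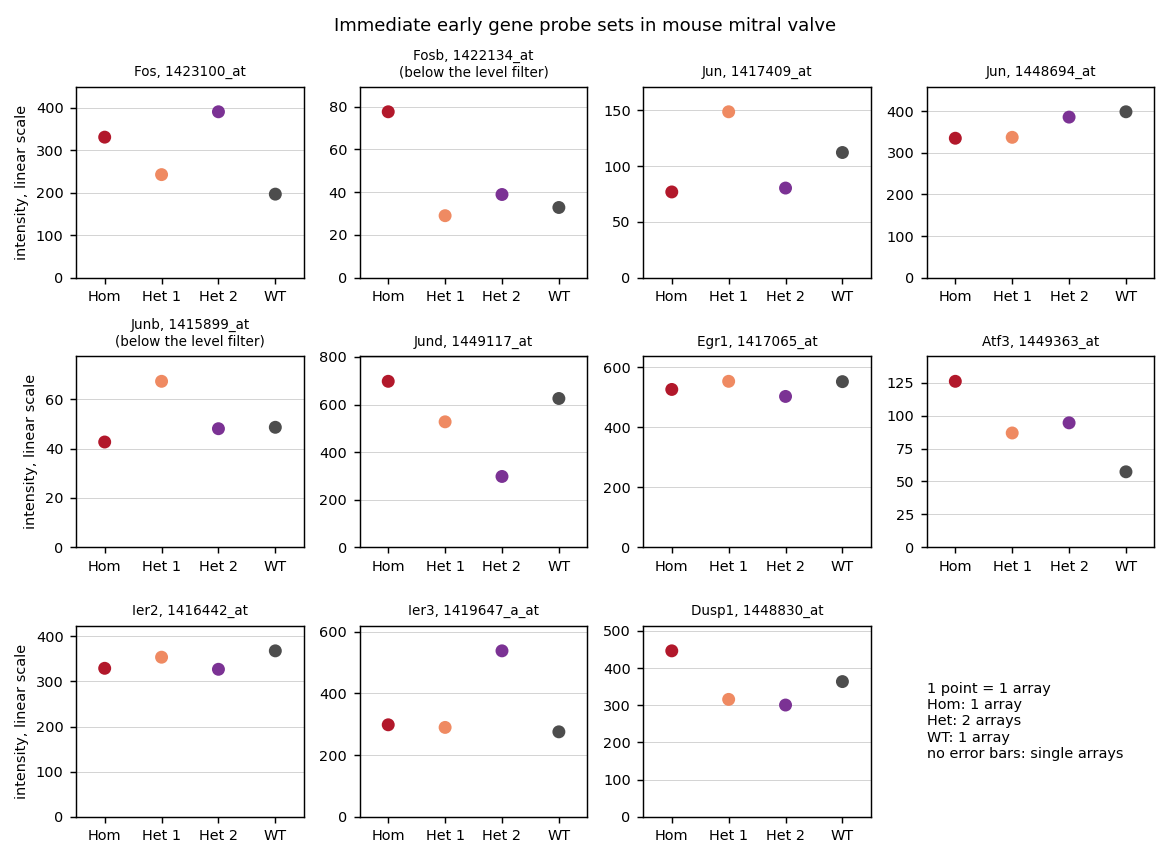
Intensity on a linear scale (vertical axis, from 0) of each of the 11 immediate early gene probe sets on the Hom, Het replicate 1, Het replicate 2 and WT arrays (horizontal axis), with 1 point per array and no error bars. Atf3 runs between 57.3 in WT and 126 in Hom, Jund is lowest in Het replicate 2 at 297.5, and Egr1 stays between 502.5 and 552.9.

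Fos encodes c-Fos, the AP-1 subunit that needs a Jun partner to bind DNA. Its intensity was 331 in Hom, 243 and 391 in Het replicates 1 and 2, and 197 in WT. Every mutant array was above WT, and Hom lay between the Het arrays. The Hom minus WT difference was 0.75 log2 units (1.68-fold, SE 0.57, limma adjusted p = 1), and 1.63% of kept probe sets lay at least as far above WT in Hom. The Het minus WT difference was 0.65 (SE 0.49, adjusted p = 1 by limma), made up of 0.30 and 0.99 for replicates 1 and 2. The gap between the Het arrays, 0.69, was close to the Hom minus WT difference in size.

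Fosb, a close relative of Fos that is usually induced with it, read 77.5 in Hom, 29 and 38.9 in Het replicates 1 and 2, and 32.8 in WT. Hom was thus 2.36-fold above WT and at least 1.99-fold above each Het array, the widest range of the 11 probe sets. With a mean below the limit of 62.6 it entered no test, and with the floor raised to the median of all values the Hom minus WT difference shrank to 0.321 log2 units. That high value rests on 1 array and 1 dim probe set.

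Jun encodes c-Jun, the partner of Fos in AP-1, and its 2 probe sets disagreed. The brighter read 335 in Hom, 337 and 386 in Het replicates 1 and 2, and 399 in WT, a range of 0.25 log2 units. The dimmer read 76.9 in Hom, 149 and 80.3 in Het replicates 1 and 2, and 112 in WT, a range of 0.95. Both were lowest in Hom. The Hom minus WT differences were -0.25 (SE 0.55) and -0.55 (SE 0.59), each with an adjusted p of 1 by limma. For the dimmer probe set the Het arrays lay on opposite sides of WT and 0.89 log2 units apart, further than any genotype was from WT.

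Junb, an AP-1 subunit that is a weaker activator than c-Jun, read 42.7 in Hom, 67.2 and 48.0 in Het replicates 1 and 2, and 48.6 in WT, below the level filter. Het replicate 1 was highest and the other arrays lay within a narrow band.

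Jund, the Jun family member that is expressed without a stimulus and varies least in many cells, read 697.5 in Hom, 527 and 297.5 in Het replicates 1 and 2, and 625 in WT. Hom was highest and both Het arrays were below WT, Het replicate 2 by 1.07 log2 units and Het replicate 1 by 0.25. Of kept probe sets, 3.22% lay at least as far below WT in Het replicate 2. For Hom against Het the difference was 0.82 (SE 0.50, limma adjusted p = 1), the farthest from 0 among the kept members in that comparison. It was 0.404 without Het replicate 2 and 1.23 without Het replicate 1.

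Atf3 encodes a stress-induced factor that dimerises with Jun proteins and often represses. Its intensity was 126 in Hom, 86.8 and 94.5 in Het replicates 1 and 2, and 57.3 in WT. Both Het arrays lay between Hom and WT, and the Het arrays were only 0.12 log2 units apart. Hom was 2.2-fold above WT (log2 difference 1.14, SE 0.55, limma adjusted p = 1), and 0.415% of kept probe sets lay at least as far above WT. Het replicate 1 was 0.60 log2 units above WT and Het replicate 2 was 0.72 above, which share the WT array. The slope was 0.57 log2 units per mutant allele (SE 0.19, limma adjusted p = 1). It was the only member slope past an unadjusted 0.05, as were 91 of the 11316 kept probe sets, fewer than the 566 expected if none differed. Without Het replicate 1 it no longer passed that unadjusted mark.

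Egr1, a zinc finger factor induced with Fos by serum response factor, read 526 in Hom, 553 and 502.5 in Het replicates 1 and 2, and 552 in WT. The 4 arrays spanned 0.14 log2 units, the narrowest range of the 11 probe sets, and the Hom minus WT difference was -0.07 (SE 0.55). Ier2, a nuclear protein induced with the same kinetics, read 329 in Hom, 354 and 327 in Het replicates 1 and 2, and 368 in WT. Its range was 0.17 log2 units, with every mutant array slightly below WT. For both genes each genotype difference was far smaller than its SE by limma. Those SEs were wide, at least 0.547 for Hom minus WT, where the SD over all kept probe sets was 0.339. A difference below its SE therefore does not show that a gene is unchanged. Even the Hom minus WT difference of Atf3, 1.14 with an SE of 0.55, was not called with these 4 arrays.

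Ier3, a stress-induced regulator of survival signalling, read 298 in Hom, 289.5 and 538 in Het replicates 1 and 2, and 275 in WT. Het replicate 2 alone stood apart, 0.97 log2 units above WT and 0.89 above the other Het array, and 3.28% of kept probe sets lay at least as far above WT there. Hom was 0.11 and Het replicate 1 0.07 log2 units above WT. The Het minus WT difference of 0.52 (SE 0.51, limma adjusted p = 1) became 0.07 without Het replicate 2.

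Dusp1 encodes the phosphatase MKP-1, which inactivates MAP kinases and so ends the response. It read 446 in Hom, 316 and 301 in Het replicates 1 and 2, and 364 in WT. Hom was highest, both Het arrays were below WT, and the Het arrays were 0.07 log2 units apart. The Hom minus Het difference was 0.54 (SE 0.47, limma adjusted p = 1) and the Hom minus WT difference 0.30 (SE 0.55).

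**Figure D2:**
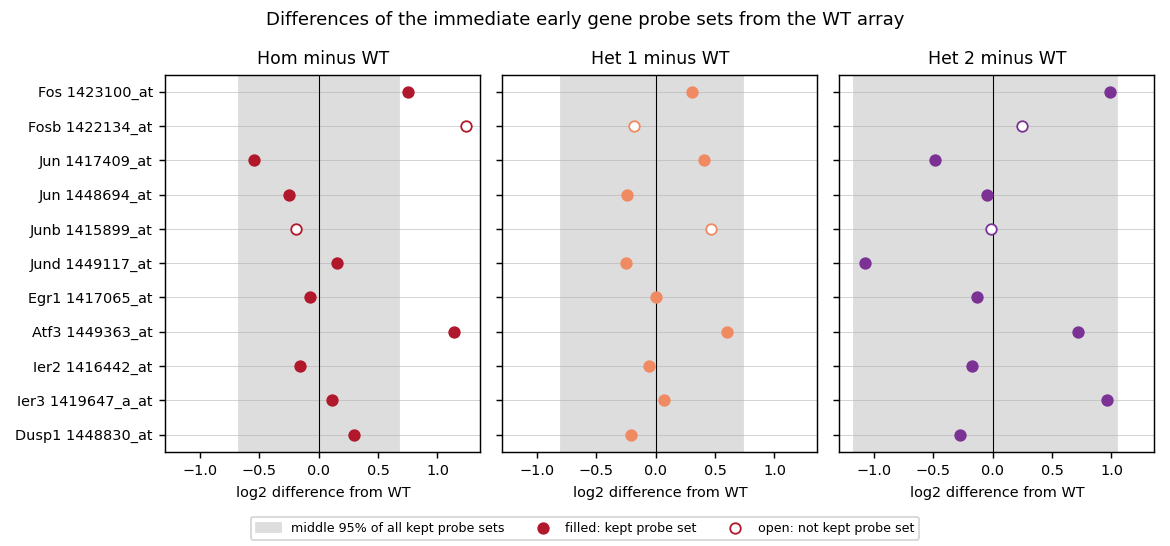
Log2 difference from the WT array (horizontal axis) of each immediate early gene probe set (rows) in Hom, Het replicate 1 and Het replicate 2, with filled points for kept probe sets, open points for the 2 not kept, and grey for the middle 95% of all 11316 kept probe sets. Fos, Fosb and Atf3 lie above the grey band of -0.67 to 0.68 in Hom, and no point lies outside the wider bands of Het replicate 1 (-0.80 to 0.74) and Het replicate 2 (-1.17 to 1.05).

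Hom was set against WT to see the genes with no wild-type fibrillin-1 allele. Of the 9 kept probe sets, 5 were higher and 4 lower in Hom, with a median of 0.115 log2 units, beside -0.0156 over all kept probe sets. At least 2-fold apart were 1 higher (Atf3) and 0 lower, where 0.672% of all kept probe sets were that far above WT and 0.61% that far below. By limma 0 of the 9 passed an adjusted p of 0.05, and 0 passed an unadjusted 0.05, where 0% of all kept probe sets passed the adjusted threshold and 69 the unadjusted one. The SEs of these differences, between 0.547 and 0.586, combine the spread of the Het pair (1 residual degree of freedom) with the variance pooled over all kept probe sets (16.9 prior degrees of freedom), which weighs far more. The test thus assumes that the lone Hom and WT arrays vary like the Het arrays. An exact permutation test of 2 Het arrays against 1 could not go below p = 0.333.

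Het was set against WT to see the genes with a single mutant allele. Averaged over the Het arrays, 3 of the 9 kept probe sets were above WT (Atf3, Fos and Ier3) and 6 below, with a median of -0.066. At least 2-fold from WT were 0 in Het replicate 1, where 0.795% of kept probe sets were higher and 1.25% lower. In Het replicate 2 there were 0 higher and 1 lower (Jund), where 2.93% and 4.08% were. By limma 0 of the 9 passed, adjusted or unadjusted, where 0.00884% of all kept probe sets passed the adjusted threshold, 1 probe set in all, and 146 the unadjusted one.

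Hom was set against Het to see the genes with 2 mutant alleles beside 1. Atf3, Jund and Dusp1 were above both Het arrays in Hom, 3 of the 9 kept probe sets, and both Jun probe sets were below both, while 27.2% of all kept probe sets lay above both and 27.6% below both. At least 2-fold apart was 1 probe set, Jund in Hom against Het replicate 2 (2.35-fold higher), where 3.97% of kept probe sets were. Against Het replicate 1 0 were at least 2-fold higher or lower in Hom, where 1.09% and 0.689% of kept probe sets were. By limma 0 of the 9 passed, adjusted or unadjusted, where 0% of all kept probe sets passed the adjusted threshold and 119 the unadjusted one. For the slope on the number of mutant alleles 0 of the 9 passed the adjusted threshold, as did 0% of all kept probe sets.

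Taking the order of the arrays, WT was lowest at 3 of the 9 kept probe sets (Fos, Atf3 and Ier3), against 18.9% of all kept probe sets, Het replicate 2 at 4 (Jund, Egr1, Ier2 and Dusp1), against 36.9%, Hom at 2 (both of Jun), against 19.8%, and Het replicate 1 at 0, against 24.4%. Hom was highest at 3, against 18.8%, Het replicate 1 at 2, against 25.9%, Het replicate 2 at 2, against 34.4%, and WT at 2, against 20.9%. The median size of the difference between the Het arrays, which share 1 genotype, was 0.194 log2 units over the 9 and 0.383 over all kept probe sets. Between Hom and WT it was 0.251 over the 9 and 0.191 over all. The mean profile of the 9 was nearly flat, at 0.09 log2 units about its own mean in Hom, -0.0004 and -0.016 in Het replicates 1 and 2, and -0.07 in WT. Nearest to it by root mean square distance over the 4 arrays were Poldip2 (0.00512), Atp6v1b2 (0.00589), Mrpl16 (0.00705), Pgk1 (0.0108) and Exosc4 (0.0163).

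Other immediate early genes were taken from a list of 61, of which 58 had a probe set with 1 gene and 37 had a kept one, 53 probe sets in all. By limma 0 of the 53 passed in any of the 4 fits. In Hom 31 were above WT and 22 below, with a median of 0.05 log2 units, and 3 were at least 2-fold higher and 0 lower, where 0.672% and 0.61% of all kept probe sets were. In Het replicate 1 21 were above WT and 32 below (median -0.095), with 0 at least 2-fold higher and 1 lower, where 0.795% and 1.25% of all kept probe sets were. In Het replicate 2 30 were above and 23 below (median 0.07). There 5 were at least 2-fold higher and 3 lower, where 2.93% and 4.08% of all kept probe sets were. Ptgs2, Gadd45g and 1 probe set of Socs3 are among these 5, and Ptgs2 is also among the 3 higher in Hom. They passed the filter only through their level in Het replicate 2, so the count of 5 is not independent of the filter. None was at least 2-fold above WT in both Het arrays, nor below it in both.

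Ptgs2, the inducible cyclooxygenase of prostaglandin synthesis, had the highest values of that list for Hom minus WT and mean Het minus WT, but both rest on a WT value at the edge of the floor. It read 53.3 in Hom, 32.0 and 298 in Het replicates 1 and 2, and 19.7 in WT, where the floor is 19. Only its level in Het replicate 2 took its mean past the filter. Its differences of 3.92 log2 units from WT in that array and 1.44 in Hom are thus a description. They are not taken as support for anything, although the counts of probe sets at least 2-fold higher include them. For Het replicate 1 minus WT, Ptgs2 (0.70) was below Ccl2 (0.79) and below Thbs1 (0.94 and 0.81 by its 2 probe sets), an extracellular matrix gene chosen after its values were seen. Ccl2, a monocyte chemokine first found as an immediate early gene, followed the same order, with 205.5 in Hom, 138.5 and 387 in Het replicates 1 and 2, and 79.9 in WT. Socs3, a feedback inhibitor of cytokine signalling, was 1.02 log2 units above WT in Hom by 1 probe set and 0.01 by the other, and both may cross-hybridise by their design. Btg2, an antiproliferative gene, was 0.73 above WT in Hom and 0.35 by its other probe set, and the stress gene Gadd45g was 0.70 above. Gadd45g and the Socs3 probe set at 0.01 passed the filter only through Het replicate 2. Averaged over the Het arrays, Errfi1, a feedback inhibitor of the epidermal growth factor receptor, was 0.79 above WT. The matricellular gene Ccn2 was 0.69 above and the growth factor gene Hbegf 0.55 (0.23 by its other probe set). None of these passed limma's test. The value of Ccn2 rests on Het replicate 2, at 1.42, beside -0.03 in Het replicate 1.

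Lowest in Hom against WT on that list were Klf10, an early target of TGF-beta (-0.55), Nfkbia, the inhibitor of NF-kappaB (-0.53 by 1 probe set, -0.11, -0.15 and -0.17 by the others), the RNA-decay factor Zfp36l1 (-0.50), Klf4 (-0.47 and -0.17 by its 2 probe sets) and the survival gene Mcl1 (-0.34 by 1 probe set, between -0.22 and 0.11 by the others). Klf10 was below WT on every mutant array, at 270 in Hom, 287 and 246 in Het replicates 1 and 2, and 395 in WT. In the mean of the Het arrays Klf2, a flow-induced factor of endothelium, was lowest (-1.15), followed by Egr3 (-0.83), Klf4 (-0.72 and -0.46 by its 2 probe sets), Rhob (-0.71) and Zfp36l1 (-0.64). The value of Zfp36l1 rests on Het replicate 1, at -1.25, beside -0.04 in Het replicate 2. Egr3 (-0.43 and -1.22) and Rhob (-0.25 and -1.17) were below WT in Het replicates 1 and 2, further in replicate 2. Klf2 read 1158 in Hom, 999 and 282 in Het replicates 1 and 2, and 1176 in WT, so that its low Het mean rests on Het replicate 2. On that array 7 of 7 endothelial marker probe sets were below WT, with a median of -0.66. Summed endothelial intensities were 3099 in Hom, 3424 and 2331 in Het replicates 1 and 2, and 3554 in WT, with 1 of 8 endothelial probe sets at the floor in Het replicate 1 and 0 on the other arrays. Their part in the value of Klf2 was not tested.

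Markers of macrophages, platelets, erythroid cells, cardiomyocytes and adipocytes also differed with Het replicate 2. Fos, Ier3, Ptgs2 and Ccl2 were highest on that array, and Jund, Egr1, Ier2 and Dusp1 lowest. Smooth muscle markers were split in Het replicate 2, with 2 of 4 kept probe sets above WT and 2 below (median -0.01). The 1 kept neutrophil probe set, of Ngp, was lower there (log2 difference from WT -0.59). The median of 17 macrophage marker probe sets was 0.57 log2 units above WT there, with 15 of the 17 higher, against -0.31 in Het replicate 1 and -0.08 in Hom. Summed macrophage intensities were 4755 in Hom, 4213 and 8110 in Het replicates 1 and 2, and 5046 in WT. At the floor were 2 of 19 macrophage probe sets in Hom, 0 and 1 in Het replicates 1 and 2, and 2 in WT. Platelet markers summed to 1046 in Hom, 2172 and 3467 in Het replicates 1 and 2, and 1221 in WT. None of their 4 probe sets was at the floor, but that of Gp9 passed the filter only through Het replicate 2. Gp9 read 77.15 in Hom, 41.4 and 194 in Het replicates 1 and 2, and 39.5 in WT. The 1 probe set called in Het minus WT was the platelet marker Ppbp (limma adjusted p = 0.0403), at 86.1 in Hom, 552 and 922 in Het replicates 1 and 2, and 73.7 in WT. Erythroid markers summed to 1482 in Hom, 1185 and 2858 in Het replicates 1 and 2, and 1267 in WT over 3 kept probe sets. Cardiomyocyte markers, 23 kept probe sets, summed to 58085 in Hom, 70624 and 28131 in Het replicates 1 and 2, and 57432 in WT, and 21 of the 23 were below WT in Het replicate 2. Adipocyte markers had the lowest median of the lists on that array (-1.71), with sums of 1259 in Hom, 1065 and 419 in Het replicates 1 and 2, and 1331 in WT over 3 kept probe sets, 2 of them of Fabp4. The part of these cell types, and of the RNA integrity of that array, in the values of the immediate early genes was not tested, and fewer cells of a type cannot be told apart from less RNA per cell in such tissue.

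**Figure D3:**
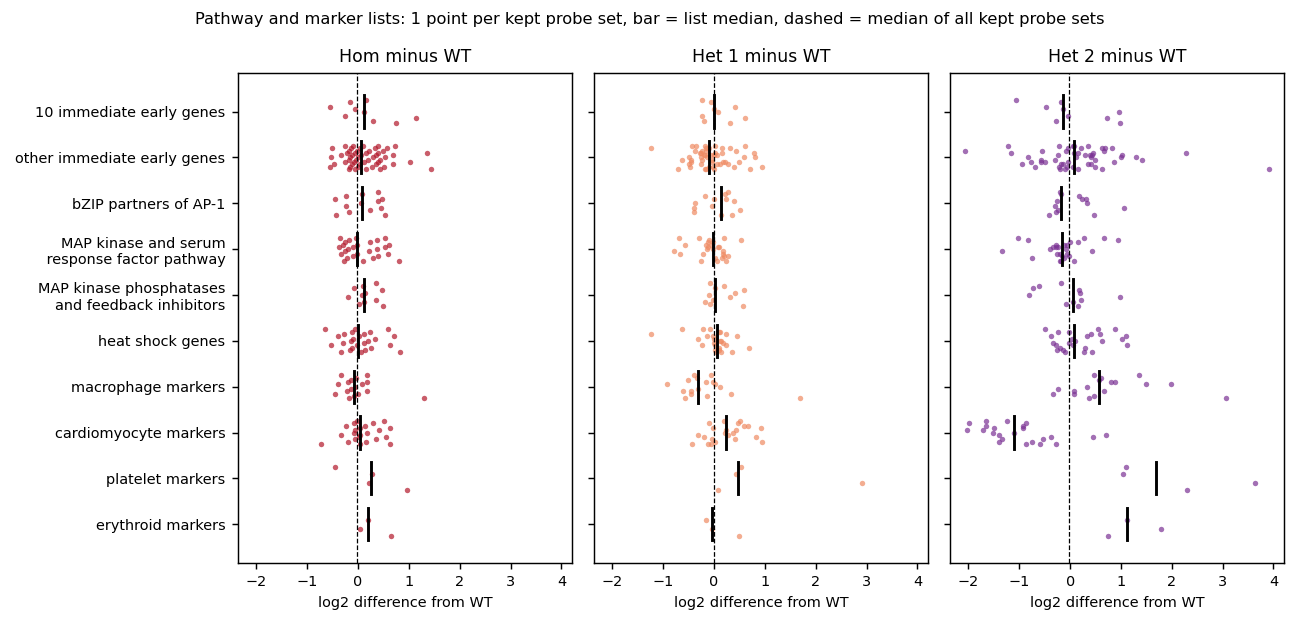
Log2 difference from the WT array (horizontal axis) of the kept probe sets of each pathway or marker list (rows) in Hom, Het replicate 1 and Het replicate 2, with 1 point per probe set, a bar for the list median and a dashed line for the median of all kept probe sets. The immediate early and heat shock lists are centred near the dashed line on every array, while macrophage markers have a median of 0.57 and cardiomyocyte markers one of -1.1 in Het replicate 2.

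By limma 0 probe sets of the factors that pair with or act upstream of the 10 genes passed in any fit. Among 13 kept probe sets of AP-1 partners, 8 were above WT and 5 below in Hom (median 0.08), led by the small Maf protein Mafk (0.53) and by the stress factor Atf4, which drives Atf3 in the integrated stress response (0.48 and 0.44 by its 2 kept probe sets). Lowest were Jdp2, a repressor of AP-1 (-0.44), Nfe2l1 (-0.43) and Atf5 (-0.24). For mean Het minus WT, Mafk (0.41) and Atf4 (0.34 and 0.24) were again highest and Atf6 (-0.34), Atf5 (-0.18) and Nfe2l1 (-0.14) lowest.

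Among 27 kept probe sets of the MAP kinase and serum response factor pathway, 12 were above WT and 15 below in Hom (median -0.0151). Elk4, a partner of serum response factor, was 0.80 above WT by 1 probe set and 0.27 below it by the other (log2 difference -0.27). The stress kinase genes Mapk8 (0.62) and Mapk9 (0.59) were next, with their other probe sets at 0.24 and -0.23. The Mapk8 probe set at 0.62 read 93.4 in Hom, 58.45 and 58.1 in Het replicates 1 and 2, and 60.9 in WT. It passed the filter only through Hom, so its high value there is not independent of the filter. Lowest in Hom were 1 probe set each of Map2k2 (-0.38, with the other at 0.38), Egfr (-0.35, with the other at -0.01) and Elk3 (-0.33, with the other at -0.29). In the mean of the Het arrays Map2k2 (0.73), Map2k4 (0.30) and Rps6ka3 (0.24, and 0.19 by its other probe set) were highest, and Elk4 (-1.06), Egfr (-0.86, and -0.42 by its other probe set) and Map2k4 (-0.46) lowest, so that the probe sets of Elk4, Map2k2 and Map2k4 went opposite ways. Srf itself read 146 in Hom, 111 and 86.0 in Het replicates 1 and 2, and 113 in WT by 1 probe set, and 165.5 in Hom, 144 and 139 in Het replicates 1 and 2, and 167 in WT by the other. It is given for its role as the factor of the CArG box.

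Among 11 kept probe sets of MAP kinase phosphatases and feedback inhibitors other than Dusp1, 9 were above WT and 2 below in Hom (median 0.117), beside -0.0156 over all kept probe sets. Dusp7 (0.48), Dusp6, which inactivates ERK (0.48), and Spred1 (0.35 by 1 probe set and -0.20 by the other) were highest. Dusp8 (-0.08) and Spry1 (0.03) were the other 2 of the 3 lowest. The Spred1 probe set at 0.35 read 73.5 in Hom, 56.6 and 66.9 in Het replicates 1 and 2, and 57.5 in WT. It passed the filter only through Hom, so the count of 9 above WT is not independent of the filter. On average in Het, Spred1 (0.65), Dusp6 (0.37) and Dusp7 (0.36) were highest and Dusp2 (-0.45), Dusp8 (-0.36) and Dusp10 (-0.21) lowest. That Spred1 value is from the probe set at -0.20 in Hom, and the other Spred1 probe set was at 0.10. Dusp8 (0.01 and -0.73) and Dusp10 (0.20 and -0.61) were on opposite sides of WT in Het replicates 1 and 2.

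Heat shock genes, the other response commonly read as a sign of handling, gave 13 of 26 kept probe sets above WT and 13 below in Hom, with a median of -0.00728. In Het replicate 1 17 were above WT (median 0.07). Of the 26, 0 were at least 2-fold higher there and 1 lower (Hspe1), where 0.795% and 1.25% of all kept probe sets were. In Het replicate 2 15 were above WT (median 0.08). There 3 were at least 2-fold higher and 0 lower, where 2.93% and 4.08% of all kept probe sets were. Hom minus WT was highest for the co-chaperone Bag3 (0.83), the small heat shock protein Hspb1 (0.71 and 0.58) and Hspe1 (0.63), whose other probe set was at -0.28. It was lowest for the inducible Hspa1a (-0.64), Hspa8 (-0.54 by 1 probe set, -0.12 and -0.16 by the others) and Hspd1 (-0.39). Hspa1a read 58.9 in Hom, 59.2 and 170 in Het replicates 1 and 2, and 91.8 in WT. Hspb1, by its brighter probe set, read 1354 in Hom, 1121 and 1756 in Het replicates 1 and 2, and 825 in WT, and by the dimmer one 901 in Hom, 517.5 and 879 in Het replicates 1 and 2, and 603 in WT. The array with its lowest value was thus WT by 1 probe set and Het replicate 1 by the other. Of the Het means, Hspb1 (0.77, and 0.16 by its other probe set), Hspe1 (0.67) and Hspa1b (0.49, and 0.35 and 0.40 by its others) were highest. Hspe1 by its other probe set (-0.42), Hsp90aa1 (-0.29, and 0.11 and -0.06 by its others) and Hspd1 (-0.25) were lowest. By limma 0 of the 26 passed in any fit.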

How the data were processed

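Total RNA of mouse mitral valve was measured on 4 arrays (1 Hom, 2 Het, 1 WT), grouped by their titles. The authors deposited 1 linear-scale intensity per probe set. The authors' software and normalization are not given in the sources used here. The Het arrays held the same value at only 82 probe sets and were counted as separate. Probe sets were named from the array's annotation, and symbols were brought up to date through gene IDs (20380 with 1 gene, 691 with several, 1555 with none, 20351 matched), and 64 control probe sets were left out. Kept were those with a mean at or above the median of the means. Arrays were centred on the common median of kept probe sets, which moved them by -0.025 to 0.0407 log2 units. Values were floored at the 25th percentile (an intensity of 19), below which no immediate early gene lay, and log2 transformed. limma 3.58.1 in R 4.3.3 (lmFit, eBayes, Benjamini-Hochberg over 11316 probe sets, threshold 0.05) fitted 3 groups (residual degrees of freedom 1, given by the 2 Het arrays) or a slope (2). The Hom minus WT contrast of the 3-group fit was first tested on simulated data, and the slope fit was not. Arrays give no read depth, and their number limits the precision. Figures used matplotlib 3.10.9.

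All 10 genes were named, and from each list the 3 highest and 3 lowest probe sets in Hom minus WT and in mean Het minus WT (5 and 5 for other immediate early genes), with other kept probe sets of those genes beside them in at least 1 comparison. Genes named outside that rule were chosen after their values were seen. The genes and lists were chosen with earlier results of these data known. Alternatives were 3 other scalings, 2 other filters, 2 other floors, 1 probe set per gene, eBayes with trend and robust, leaving out each Het array, fits of 2 groups only, and a 1.5-fold limit.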

Additional observations from a re-analysis of the deposited data

How the results depend on the processing

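Over 348 tested values of single probe sets under the alternatives, 0 passed limma's adjusted threshold (lowest adjusted p = 0.782) and 336 kept their sign. Those that turned were near 0. Genotype differences without 1 Het array had no test and are not among the 348, and there some signs turned by more. Hom minus Het for Fos went from 0.104 to -0.239 without Het replicate 1. Het minus WT for the dimmer Jun probe set went from -0.0381 to 0.406 without Het replicate 2. With centring on all probe sets Het minus WT became 0.0317 for Egr1 and 0.0596 for the dimmer Jun probe set, and Hom minus Het became -0.0084 for Fos, and the values were the same with no filter. Hom minus Het became 0.0338 (as deposited), 0.0666 (quantile) and 0.0728 (75th percentile filter) for Egr1 and 0.0183 (quantile) and 0.0292 (75th percentile filter) for Ier2, and Het minus WT became 0.0249 (quantile) for that Jun probe set. Centring on all probe sets put the median of all kept probe sets in Het replicate 2 against WT at 0.173, beside -0.0251 in the setting reported.

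The members' median moved most for Het replicate 2. Against Het replicate 1 it was -0.128 as deposited, 0.13 centred on all probe sets and with no filter, -0.162 after quantile normalization, -0.216 with the 75th percentile filter and 0.0257 with 1 probe set per gene. Against WT it was 0.0631 centred on all probe sets, -0.249 after quantile normalization, 0.151 with no filter and -0.255 with the stricter filter. Hom minus Het replicate 2 gave 0.0756 as deposited, -0.203 centred on all probe sets and with no filter, 0.131 after quantile normalization and 0.158 with the stricter filter. Het replicate 1 minus WT gave 0.0599 after quantile normalization, and Hom minus Het replicate 1 gave 0.223 with 1 probe set per gene. Hom minus WT stayed between 0.1 and 0.143.

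Counts at least 2-fold higher became 2 with no filter and 0 with the stricter filter for Hom minus WT, and 1 with no filter for Hom minus Het replicate 1. With centring on all probe sets or no filter they became 2 for Het replicate 2 minus WT and 1 for Het replicate 2 minus Het replicate 1, while counts lower became 0 for Het replicate 2 minus WT and 1 for Hom minus Het replicate 2. At 1.5-fold, counts higher were 2 for Hom minus WT, 1 for Het replicate 1 minus WT, 3 for Het replicate 2 minus WT and 2 for Het replicate 2 minus Het replicate 1, and counts lower were 2 for the last pair, 1 for Hom minus Het replicate 1 and 1 for Hom minus Het replicate 2. No filter brings in Fosb and Junb; other causes were not tested. Over all probe sets, Het minus WT called 1 in the setting reported, 9 with 1 probe set per gene, 3 with trend and robust and 0 on 5 other settings, and Hom minus Het called 0 and at most 6. No paired analysis was possible because Hom and WT have 1 array each. Without a Het array the fit of 3 groups has no residual degree of freedom, so it gives values with no test: Het minus WT for Fos was then 0.303 or 0.99 and for Jund -1.07 or -0.246.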
